A study of Arabidopsis thaliana with 9 samples.

Results

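Histone genes were examined as a group of 40 loci among the 25760 genes of a count table made from Arabidopsis thaliana inflorescence meristems. The members were taken by locus identifier: 5 genes for H3.1, 3 for H3.3, 8 for H4, 4 for canonical H2A, 2 for H2A.X, 3 for H2A.W, 3 for H2A.Z, 9 for H2B and 3 for the linker histone H1. Of these, the 26 genes of H3.1, H4, canonical H2A and H2B are called replication-dependent here, and the 11 genes of H3.3, H2A.X, H2A.W and H2A.Z are called variants. Messenger RNA was sequenced in 9 libraries. There were 3 for col-0, the wild type, 3 for csld5, a mutant of the cellulose synthase-like gene CSLD5, and 3 for the same mutant carrying pATML1::GFP+CSLD5, called complemented below. The ATML1 promoter comes from a gene of the outermost cell layer of the shoot, so the transgene is not under the control of CSLD5's own promoter. The sources do not state the allele, plant age or growth stage. Whether replicate libraries represent different plants is not stated either, and the p-values therefore measure the spread between these libraries.

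A nucleosome is DNA wound around an octamer of H2A, H2B, H3 and H4, and H1 binds the DNA that enters and leaves it. Dividing cells must package newly copied DNA, and in plants, as in animals, replication-dependent histones are made mainly during DNA synthesis, whereas variants are also placed in chromatin outside it. H3.3 is exchanged into transcribed genes. H2A.Z sits around gene starts and responsive genes, H2A.X is phosphorylated at DNA breaks, and H2A.W is a plant variant of heterochromatin. Plant histone transcripts are polyadenylated, unlike the replication-dependent ones of animals.

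H3.1 and H3.3 differ by few residues, and a short coding stretch shows how alike the counted transcripts are. Across the 411 coding bases of the 5 H3.1 genes and of 2 H3.3 genes, HTR5 and HTR8, 14 positions separated all H3.1 from both H3.3. The longest coding sequence of HTR4, the third H3.3 gene, was annotated with 495 bases and was not aligned. Coding bases 250 to 279, from RefSeq's annotation of TAIR10.1, are shown 5′ to 3′ on the coding strand because 3 of the 14 positions fall here. Capitals mark them, in codons 88 and 91 counted from the start codon, which lie in the region known to distinguish the proteins for deposition.
HTR1: cgtttccagagcAGcgccgtcgCagcactt
HTR2: cgtttccagagcAGtgccgtcgCcgctctt
HTR3: aggtttcagagtAGtgcagtcgCagctctt
HTR9: aggttccagagcAGtgccgtcgCagctctt
HTR13: aggtttcagagcAGtgctgttgCtgcttta
HTR5: cgtttccagagcCAtgctgtgcTtgcactc
HTR8: aggtttcagagtCAcgcggtgtTagctctt
Coding identity was 80.3% to 89.5% between pairs of H3.1 genes and 74.0% to 80.3% between an H3.1 and an H3.3 gene. No exon window of 100 bases in an H3 gene occurred elsewhere in the genome. Among the H4 genes identity ran from 78.8% to 98.1%, and 4 of the 8 held some repeated windows, 12.1% of the windows of AT3G46320, 11.1% of AT3G45930, 7.3% of AT1G07660 and 4.3% of AT1G07820. The handling of reads from those windows during counting is not stated, which makes the values of these 4 genes less certain.

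Library totals were 35543318 to 45679471 counts. All 40 members passed the expression filter, which kept 22671 genes, and apart from H1.3 no member had fewer than 131 counts in any library. CSLD5 itself followed the labels, at 54.8 to 60.1 TPM in col-0, 10.9 to 11.7 TPM in csld5, and 364 to 433 TPM in the complemented plants. TPM is the authors' length-scaled transcript abundance. The 3 csld5 libraries differed in how far their counts followed exon GC content and length: a smooth curve on both accounted for 9.18%, 14.2% and 33.9% of the deviation of gene levels, the last in csld5 replicate 3, against 2.54% to 4.93% in the col-0 and 12.8% to 21.5% in the complemented libraries. Meristem regulators were detected, WUS at 13.3 to 27.4 TPM and STM at 25.7 to 33.9 TPM over the 9 libraries, whereas the stem cell peptide gene CLV3 was listed at 0 to 0.249 TPM.

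In csld5 the replication-dependent histone transcripts were lower as a class than in col-0, those of H2B and H4 most, while summed H3.3 and H1 transcripts stood at 89.2% and 99.9% of their col-0 TPM. Transcripts of 34 of the 40 members fell and 0 rose at a Benjamini-Hochberg adjusted p of 0.05 (edgeR, quasi-likelihood F test). Of all tested genes 20.4% were called lower and 41.5% were called in either direction. No member was higher at an unadjusted p under 0.05, and DESeq2 and limma on TPM also called 34 lower and 0 higher. In scaled counts (CPM), all 3 csld5 libraries lay below all 3 col-0 libraries in 35 of the 40 members, against 25.8% of tested genes. The median log2 fold change was -0.51 over the members and -0.02 over all tested genes. In these bulk samples, fewer dividing cells and less histone RNA per cell cannot be told apart.

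Replication-dependent and variant genes differed in size of change more than in direction. Of the 26 replication-dependent genes 25 fell, with a median of -0.69 and a range of -1.40 to -0.20. Of the 11 variant genes 8 fell, with a median of -0.29 and a range of -0.56 to 0.07. Of the 3 linker genes 1 fell. By type, the medians were -0.83 for H2B, -0.72 for H4, -0.59 for H3.1 and -0.44 for canonical H2A, then -0.52 for H2A.W, -0.30 for H2A.X, -0.29 for H2A.Z, -0.14 for H3.3 and -0.09 for H1. The H2A.W median thus lay within the range of the replication-dependent types. With a correction for GC content and exon length it was -0.24, beside -0.22 for H2A.Z.

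**Figure D1:**
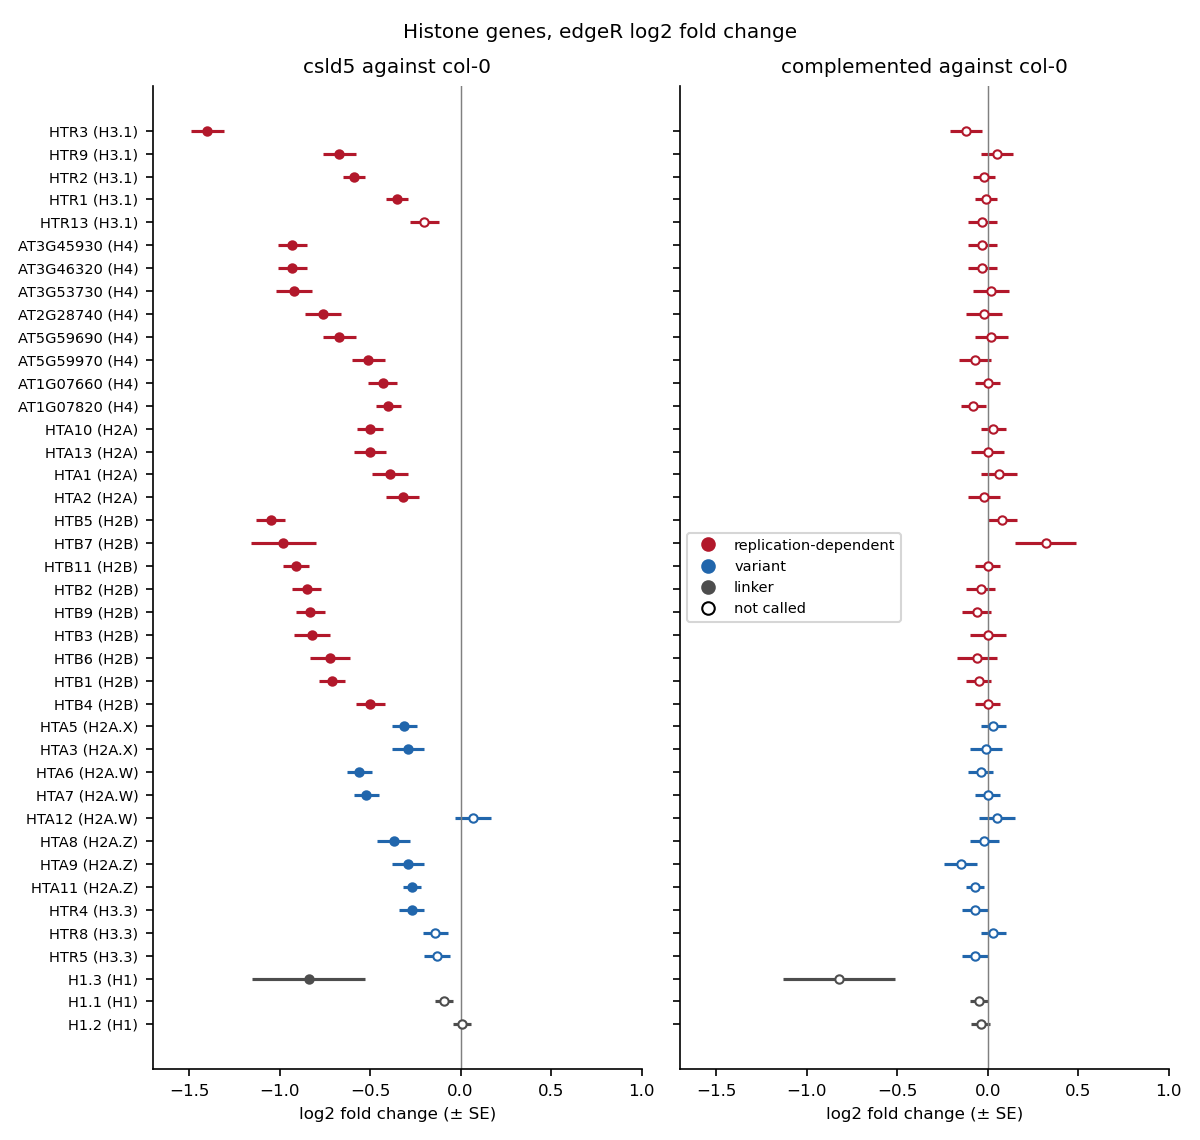
Log2 fold change with its standard error (edgeR, 3 against 3 libraries) of each of the 40 histone genes, in csld5 against col-0 on the left and in complemented against col-0 on the right; filled points passed an adjusted p of 0.05. On the left 34 points are filled and all of these lie below 0; on the right none is filled, and H1.3 and HTB7 lie furthest from 0.

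H3.1 is the H3 form placed behind the replication fork. HTR1 (AT5G65360, chr5:26119859-26120581, minus strand, 1 exon) had the highest H3.1 level, at 576, 586 and 563 TPM in col-0, 465, 474 and 428 in csld5 and 576, 589 and 542 in complemented libraries. Every csld5 library lay below all 6 others. Its log2 fold change was -0.35 ± 0.06 (SE, n = 3 against 3; adjusted p = 0.00077, edgeR quasi-likelihood F test, Benjamini-Hochberg adjusted). HTR2 and HTR9 fell by 0.59 ± 0.06 and 0.67 ± 0.09. HTR13 stood at -0.20 ± 0.08 (adjusted p = 0.059) and was the replication-dependent gene that did not pass; its scaled counts (CPM) in csld5 and col-0 overlapped. It passed without col-0 replicate 3 (-0.25), without csld5 replicate 1 (-0.25), with library totals (-0.28), with limma on TPM (-0.20) and with the replicate block (-0.20, adjusted p = 0.029).

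HTR3 (AT3G27360, chr3:10129105-10129937, minus strand, 1 exon) had the smallest p of the H3.1 genes and, in counts, the largest change of any member. It was counted 859, 877 and 663 times in col-0, 299, 261 and 244 times in csld5 and 810, 676 and 819 times in complemented libraries. The csld5 counts were all below the others, and the log2 fold change was -1.40 ± 0.09 (adjusted p = 3.8e-07). Its TPM gave a smaller change. They were 289, 270 and 271 in col-0, 178, 167 and 152 in csld5 and 286, 291 and 266 in complemented libraries, and limma on these values gave -0.74 (adjusted p = 2e-05), nearer to 0 than the -1.03 of HTB5 by the same measure. The annotation of AT3G27380 on the same strand overlaps 39.4% of HTR3's exon, and HTR3 had 10.5% of the counts per TPM and exon length that was the median over genes of at least 10 TPM. The size of its change is therefore uncertain between these measures, and the direction was the same in both.

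The H3.3 genes serve as a counterpart with nearly the same protein. HTR5 (AT4G40040, chr4:18557149-18558945, minus strand), the highest of them in the mean over all 9 libraries, was at 487, 488 and 474 TPM in col-0, 466, 466 and 415 in csld5 and 465, 448 and 471 in complemented libraries. In csld5 it was slightly lower than in col-0 and within the range of the complemented libraries or below it, with a log2 fold change of -0.13 ± 0.07 (adjusted p = 0.14). HTR4 (AT4G40030) was at 511, 495 and 478 TPM in col-0, 441, 421 and 384 in csld5 and 466, 464 and 481 in complemented libraries, again lowest in all csld5 libraries. It fell by 0.27 ± 0.07 (adjusted p = 0.0076) and was the 1 H3.3 gene that passed. HTR8 stood at -0.14 ± 0.07 (adjusted p = 0.13). HTR5 and HTR8 were also called lower without csld5 replicate 1 (-0.17 and -0.19) and with library totals (-0.21 and -0.22).

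Summed over genes, H3.1 transcripts were lower relative to H3.3 in csld5. The H3.1 sum was 2045, 2039 and 1939 TPM in col-0, 1468, 1463 and 1294 in csld5 and 2026, 2061 and 1931 in complemented libraries. The H3.3 sum was 1367, 1343 and 1319 TPM in col-0, 1257, 1236 and 1103 in csld5 and 1310, 1290 and 1318 in complemented libraries. The ratio of H3.1 to H3.3 was 1.50, 1.52 and 1.47 in col-0, 1.17, 1.18 and 1.17 in csld5, and 1.55, 1.60 and 1.47 in complemented libraries. The ratios of the 3 csld5 libraries lay close together and below all others.

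H4 pairs with H3 and has no variant genes among the members. All 8 H4 genes fell. AT5G59690 (chr5:24051474-24052218, plus strand, 1 exon) had the highest level, at 804, 776 and 747 TPM in col-0, 542, 481 and 441 in csld5 and 864, 758 and 733 in complemented libraries. The csld5 libraries did not overlap the others, and the log2 fold change was -0.67 ± 0.09 (adjusted p = 7.6e-05, edgeR quasi-likelihood F test, Benjamini-Hochberg adjusted). AT3G53730 and AT2G28740 fell by 0.92 ± 0.10 and 0.76 ± 0.10. AT5G59970, AT1G07660 and AT1G07820 fell by 0.51 ± 0.09, 0.43 ± 0.08 and 0.40 ± 0.07.

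The smallest p among H4 genes belonged to a pair of near-copies on chromosome 3, AT3G46320 (chr3:17019785-17020428, minus strand) and AT3G45930 (chr3:16883316-16884009, plus strand), whose coding sequences were 97.4% identical. AT3G46320 was at 335, 330 and 314 TPM in col-0, 182, 179 and 149 in csld5 and 331, 326 and 297 in complemented libraries. AT3G45930 was at 292, 298 and 278 TPM in col-0, 168, 155 and 135 in csld5 and 294, 279 and 275 in complemented libraries. In both, the csld5 values were far below the others and the log2 fold change was -0.93 ± 0.08 (adjusted p = 3.8e-06 for each). Since 12.1% and 11.1% of their windows are repeated, part of their reads may be shared.

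H2B had the largest summed level and the largest summed fall. All 9 H2B genes fell. HTB2 (AT5G22880, chr5:7651868-7652714, minus strand, 1 exon), the most abundant member of all, was at 914, 916 and 844 TPM in col-0, 530, 509 and 450 in csld5 and 892, 900 and 818 in complemented libraries. No csld5 library came near another genotype, and the log2 fold change was -0.85 ± 0.08 (adjusted p = 4.4e-06). HTB5 (AT2G37470, chr2:15736727-15737728, plus strand) had the smallest p of the type, at 246, 249 and 224 TPM in col-0, 122, 124 and 104 in csld5 and 266, 257 and 239 in complemented libraries. It fell by 1.05 ± 0.08 (adjusted p = 1.7e-06) to 48.2% of its col-0 level. HTB11, HTB3, HTB6 and HTB1 fell by 0.91 ± 0.07, 0.82 ± 0.10, 0.72 ± 0.11 and 0.71 ± 0.07. HTB4 fell least, by 0.50 ± 0.08. HTB9 fell by 0.83 ± 0.08, and 37.3% of its exon is overlapped by annotation on the opposite strand. It had 26.3% of the median counts per TPM and exon length, and limma on TPM gave -0.68. HTB7, at 8.78 to 31.6 TPM, had the lowest level of the H2B genes and fell by 0.98 ± 0.18.

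Canonical H2A partners H2B, and its 4 genes fell less than the H2B genes in median. HTA10 (AT1G51060, chr1:18926811-18927746, plus strand), with both the highest level and the smallest p, was at 408, 439 and 420 TPM in col-0, 314, 309 and 278 in csld5 and 441, 450 and 409 in complemented libraries. Again the csld5 libraries were below the other 6, with a log2 fold change of -0.50 ± 0.07 (adjusted p = 0.0001). HTA13, HTA1 and HTA2 fell by 0.50 ± 0.09, 0.39 ± 0.10 and 0.32 ± 0.09.

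H2A.W binds heterochromatin and condenses it. HTA6 (AT5G59870, chr5:24115354-24116220, minus strand), its most abundant gene, was at 532, 528 and 533 TPM in col-0, 375, 376 and 340 in csld5 and 529, 531 and 489 in complemented libraries. The csld5 libraries stood well below the rest, and the log2 fold change was -0.56 ± 0.07 (adjusted p = 2.9e-05). HTA7 fell by 0.52 ± 0.07. HTA12, at 12.8 to 17.4 TPM, stood at 0.07 ± 0.10 (adjusted p = 0.64), and 34.7% of its exons are overlapped by AT5G02570 (HTB10) on the opposite strand.

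H2A.X marks broken DNA once phosphorylated. HTA5 (AT1G08880) was at 211, 211 and 209 TPM in col-0, 177, 179 and 158 in csld5 and 225, 218 and 199 in complemented libraries, with csld5 lowest throughout. It fell by 0.31 ± 0.07 (adjusted p = 0.0027). HTA3 (AT1G54690) fell by 0.29 ± 0.09 (adjusted p = 0.019), but 62.3% of its exons are overlapped by annotation on the opposite strand, and its call was lost without col-0 replicate 1 (-0.29), without col-0 replicate 3 (-0.24), without csld5 replicate 3 (-0.22) and with TMM factors from short genes (-0.19). It had 21.2% of the median counts per TPM and exon length, and limma on TPM gave -0.39 (adjusted p = 0.00052).

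H2A.Z is deposited by the SWR1 remodelling complex, and its 3 genes fell. HTA11 (AT3G54560), with the smallest p, was at 127, 128 and 123 TPM in col-0, 98.7, 112 and 106 in csld5 and 122, 120 and 118 in complemented libraries, the csld5 libraries again lowest. Its log2 fold change was -0.27 ± 0.05 (adjusted p = 0.0014). HTA9 (AT1G52740), the most abundant, was at 304, 313 and 260 TPM in col-0, 262, 233 and 222 in csld5 and 263, 254 and 271 in complemented libraries, and here csld5 and col-0 overlapped. It fell by 0.29 ± 0.09 (adjusted p = 0.016), a call lost without col-0 replicate 1 (-0.26), col-0 replicate 2 (-0.25), csld5 replicate 2 (-0.26) or csld5 replicate 3 (-0.21), and with TMM factors from short genes (-0.19). HTA8 fell by 0.37 ± 0.09.

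Linker histones showed another pattern. H1.1 (AT1G06760, chr1:2076504-2077767, minus strand) was at 448, 455 and 455 TPM in col-0, 437, 452 and 460 in csld5 and 451, 434 and 427 in complemented libraries, which overlap. Its log2 fold change in csld5 was -0.09 ± 0.05 (adjusted p = 0.17), and 41.9% of its exons are overlapped by annotation on the opposite strand. It was called lower with library totals (-0.17) and with the GC and length correction (-0.31 ± 0.05, adjusted p = 0.00047), while limma on TPM gave -0.01. H1.2 (AT2G30620) stood at 0.01 ± 0.05 (adjusted p = 0.92), with 254 to 260 TPM in col-0 and 259 to 266 in csld5. H1.3, a minor and stress-inducible H1, was counted only 64, 78 and 45 times in col-0, 20, 28 and 44 times in csld5 and 36, 38 and 35 times in complemented libraries. It was called lower in csld5 at -0.84 ± 0.31 (adjusted p = 0.044). That call was lost in 8 of the 9 fits that left out 1 library, at -0.85, -0.72 and -0.94 without col-0 replicates 1, 2 and 3, -0.61 and -0.77 without csld5 replicates 1 and 2, and -0.84 without any 1 complemented replicate. It was also lost with TMM factors from short genes (-0.72), with limma on log2(TPM + 1) (-0.48) or log2(TPM + 0.1) (-0.73), with the GC and length correction (-0.52) and with the replicate block (-0.85).

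All members together took 13249, 13264 and 12708 TPM in col-0, 9591, 9374 and 8372 in csld5 and 13173, 13135 and 12428 in complemented libraries. As a share of the listed TPM this was 1.43% ± 0.0329 (SD, n = 3) in col-0, 0.996% ± 0.0714 in csld5 and 1.41% ± 0.0443 in complemented libraries. The csld5 libraries lay below all others. Relative to the col-0 mean, csld5 held 59.8% of H2B, 61.3% of H4, 70.1% of H3.1 and 72.4% of canonical H2A transcripts. It held 69.5% of H2A.W, 79.4% of H2A.X, 82.0% of H2A.Z, 89.2% of H3.3 and 99.9% of H1 transcripts. Taken by core family, variants included, the 4 sums in csld5 were 74.2% for H2A, 59.8% for H2B, 77.8% for H3 and 61.3% for H4. The families with variant genes among the members, H2A and H3, kept more of their level than the others. Without the variants, canonical H2A (72.4%) and H3.1 (70.1%) also kept more than H2B and H4.

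**Figure D2:**
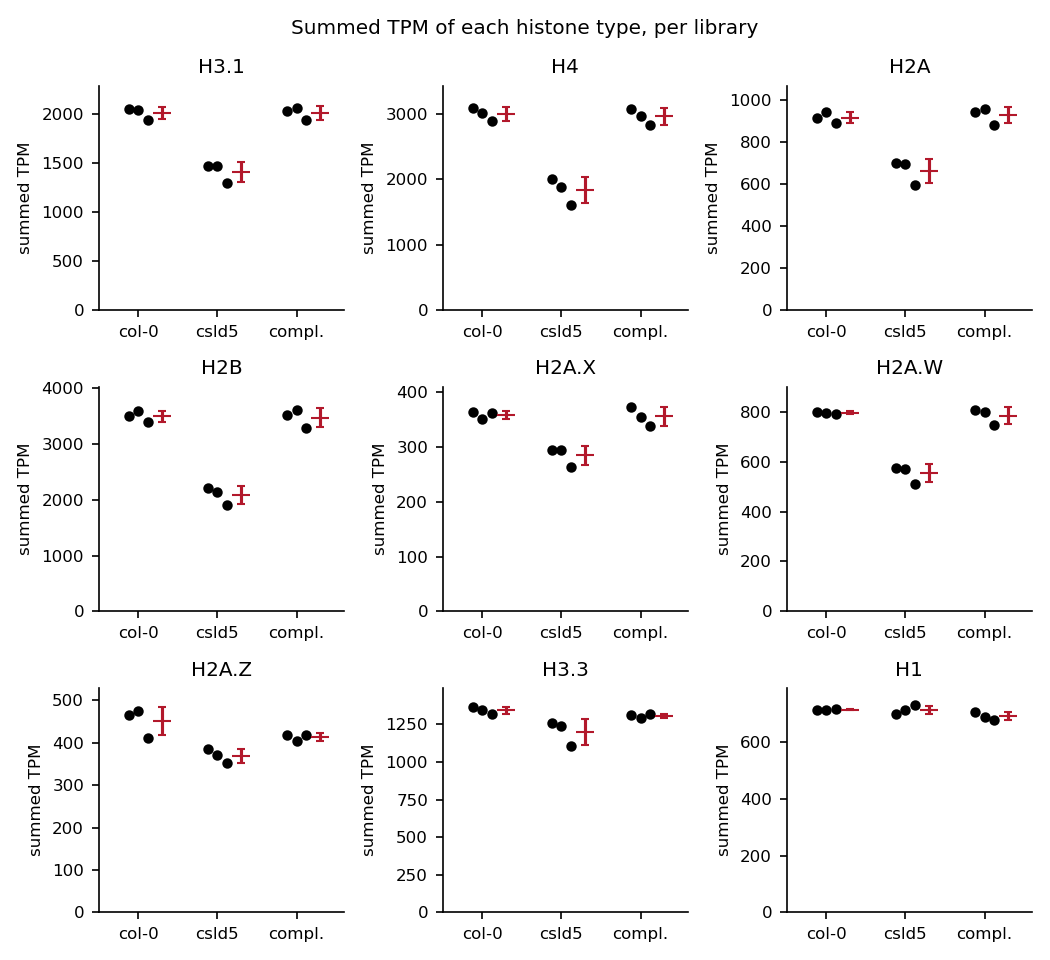
Summed TPM of each histone type in each library, with the mean and SD of 3 libraries in red; compl. stands for complemented and every axis starts at 0. For H2B the csld5 mean is 2087 TPM against 3492 in col-0 and 3468 in complemented libraries, whereas the H1 means are 712, 713 and 689 TPM.

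The difference between the classes was taken within each library, as the mean log2 CPM of replication-dependent genes minus that of variant genes. It was 0.03, 0.06 and 0.00 in col-0, -0.33, -0.37 and -0.44 in csld5 and 0.05, 0.11 and 0.01 in complemented libraries. All csld5 values were negative and lay below the others by several times the spread within a genotype. The change from col-0 to csld5 was -0.41. Without csld5 replicate 3, the library with the strongest dependence on GC content and length, it was -0.38, and 32 members were called lower. No p is given, since the members were chosen with results known.

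Histone genes are short, and short genes as such were lower in csld5. The members' merged exons spanned 644 to 1666 bases, with a median of 844.5 against 1706 for all tested genes, and 21 of the 26 replication-dependent genes had a single exon. Among 2052 other tested genes of 748 to 1001 bases, between the members' lower and upper quartiles of length, 36.5% were called lower in csld5 and 7.26% higher, and their median log2 fold change was -0.25. Of these, the 341 that also reached 54.7 CPM (counts scaled to library size), the members' first quartile of level, were called lower in 54.5% of cases, with a median of -0.21. The corresponding values were 96.2% and -0.69 for the replication-dependent members and 72.7% and -0.29 for the variants. The replication-dependent genes therefore had a lower median than these short genes, and the variants had about their median. Both classes were set against the same length window, although their lengths differ. Replication-dependent genes ran from 644 to 1286 bases and variants from 780 to 1510. Over the full length range of the members, 9566 other tested genes had a median of -0.13.

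**Figure D3:**
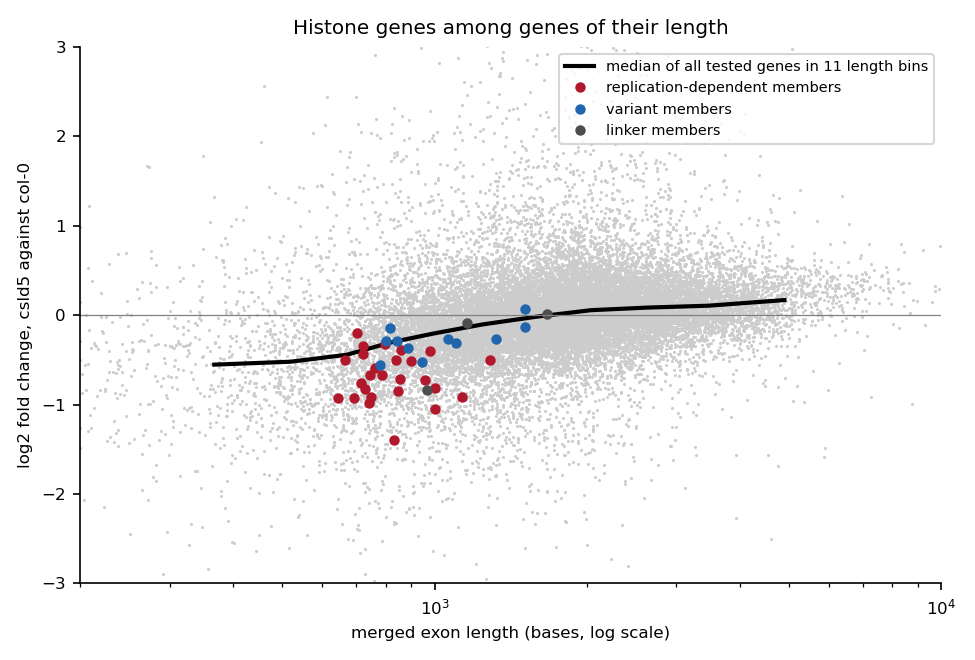
Log2 fold change in csld5 against col-0 (vertical axis) by merged exon length on a log scale (horizontal axis) for 22580 tested genes in grey, with the members coloured by class and a black line through the medians of 11 length bins; 258 genes lie outside the plotted range. The line slopes upwards with length, and most replication-dependent members lie below it. Most variants lie near it, but the H2A.W genes HTA6 (-0.56) and HTA7 (-0.52) lie below it.

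A correction of each library for exon GC content and length took out the trend: among the same 2052 short genes 14.9% were then called lower and 16.7% higher, with a median of -0.01, and over all tested genes 17.7% were called lower. Of the 341 that also reached the members' first quartile of level, 24.9% were called lower and 23.2% higher, with a median of -0.02. With the correction 28 members were called lower and 0 higher, with a median of -0.28. Of the replication-dependent genes 22 of 26 were called lower, with a median of -0.42, and of the variants 5 of 11, with a median of -0.09. All 9 H2B genes were still called, with a median of -0.53, among them HTB5 at -0.78 ± 0.06 and HTB2 at -0.58 ± 0.05. For H4, 7 of 8 were called, with a median of -0.37 and AT3G53730 at -0.67 ± 0.08. For H3.1, 4 of 5 were called, with a median of -0.41. HTR9, HTR2 and HTR1 stood at -0.53, -0.41 and -0.22, and HTR3 at -0.99 ± 0.08. The size for HTR3 remains uncertain, as it rests on the same counts as above. Canonical H2A, with 2 of 4 called and a median of -0.18, lay nearer to 0 than the variants H2A.Z, with 3 of 3 called at -0.22, and H2A.W, with 2 of 3 at -0.24. Of the H2A.X genes 0 of 2 were called, with a median of -0.07. The H3.3 genes HTR4, HTR5 and HTR8 then stood at -0.09, -0.01 and 0.03 and none was called. H1.1 was called lower under this correction, at -0.31, and H1.2 stood at 0.09. The calls of HTR4, AT1G07660, HTA1, HTA2, HTA3, HTA5 and H1.3 were lost, at -0.09, -0.12, -0.11, -0.20, -0.07, -0.08 and -0.52.

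**Figure D4:**
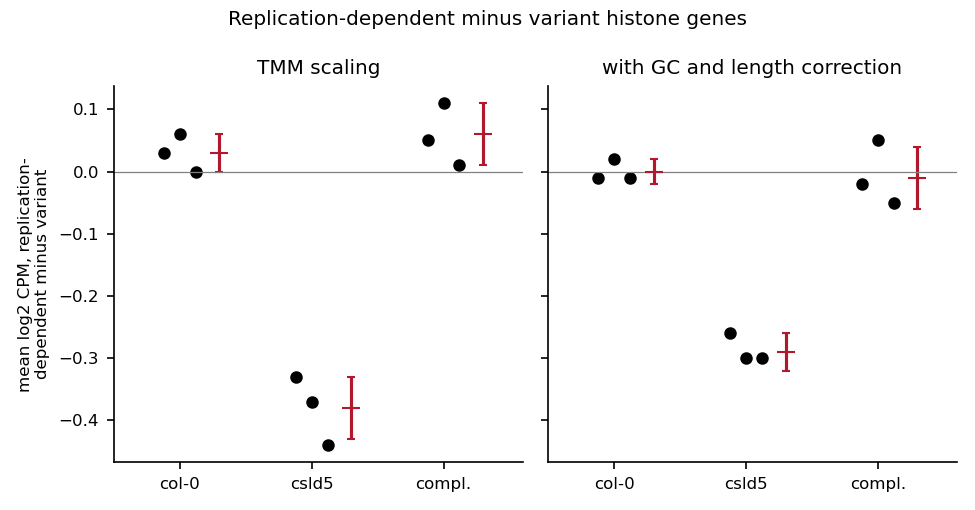
Mean log2 CPM of the 26 replication-dependent genes minus that of the 11 variant genes in each library, with TMM scaling on the left and after the GC and length correction on the right; red marks give the mean and SD of 3 libraries. The csld5 means are -0.38 and -0.29, while the other 4 means lie between -0.01 and 0.06.

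With the correction the class difference was -0.26, -0.30 and -0.30 in csld5 against -0.01, 0.02 and -0.01 in col-0 and -0.02, 0.05 and -0.05 in complemented libraries. The csld5 libraries remained below all others. Across the 26 replication-dependent genes the uncorrected fold change followed GC content, with a Spearman rho of 0.62 (genes share libraries and are not independent), and hardly followed exon length (-0.05) or the col-0 TPM (-0.07).

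In complemented plants histone transcripts were close to col-0. Against csld5, 32 of 40 members were higher and 0 lower (edgeR quasi-likelihood F test, Benjamini-Hochberg adjusted; 19.8% of all tested genes were called higher and 40.9% in either direction), with a median of 0.50. No member was lower at an unadjusted p under 0.05, DESeq2 called 32 higher and limma on TPM 33. Against col-0, 0 members were called in either direction, where 1.53% of tested genes were, 0.578% lower and 0.948% higher. In 6 members all complemented libraries lay below all col-0 libraries and in 0 above, as did 10.2% and 9.37% of tested genes. At an unadjusted p under 0.05 there was 1, H1.3, and DESeq2 and limma on TPM called 0. The median against col-0 was -0.02. With the GC and length correction 0 members were called lower or higher against col-0, where 0.962% and 1.04% of tested genes were, and the median was -0.11. These comparisons use the csld5 and col-0 libraries of the first comparison again, so they are not independent of it.

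By class, 25 of 26 replication-dependent genes rose in complemented against csld5 (median 0.67), as did 7 of 11 variants (median 0.20) and 0 of 3 linker genes. HTB2 rose by 0.81 ± 0.08, HTB5 by 1.14 ± 0.08, AT5G59690 by 0.69 ± 0.09 and HTR1 by 0.33 ± 0.06. HTR3 rose by 1.28 ± 0.09 in counts and 0.76 in limma on TPM. HTB7 rose by 1.3 ± 0.18, the largest rise, and stood at 0.32 ± 0.17 against col-0 without passing. H1.3 stood at -0.82 ± 0.31 against col-0 (adjusted p = 0.29) and 0.02 ± 0.32 against csld5. Short genes again moved with the comparison: among the 2052, 38.4% were called higher, with a median of 0.30. Of the 341 that also reached the members' first quartile of level, 53.4% were called higher, with a median of 0.22. The variants, at 63.6% and 0.20, lay near these values, and the replication-dependent genes, at 96.2% and 0.67, above them. With the GC and length correction 19 members were called higher (11.4% of all tested genes) and 1 lower, H1.2 at -0.15, with a median of 0.15. All 9 H2B genes were among the 19, with 4 of 8 H4, 3 of 5 H3.1 and 0 of 4 canonical H2A genes. Of the variants 2 of 11 were among them, with a median of 0.01. Among the variants HTR4, HTA3 and HTA11 also lost their calls with TMM factors from short genes, at 0.07, 0.16 and 0.07. HTR4 and HTA3 lost theirs in some of the fits that left out 1 library.

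Upstream of plant histone genes a conserved octamer with the letters CGCGGATC is known. It was searched on both strands in the 250 bases before each annotated gene start (RefSeq, TAIR10.1). It occurred in 10 of the 40 members (25%), against 37 of 27443 protein-coding genes (0.135%). By type these were 3 of 5 H3.1, 1 of 3 H3.3, 2 of 8 H4, 2 of 4 canonical H2A, 1 of 3 H2A.W, 1 of 3 H1 and 0 of 9 H2B genes. The stretches below run 5′ to 3′ on the gene's strand and show examples from every type with a match, with the octamer, or its reverse complement, in capitals. They lie at chr1:2972392-2972449 (minus), chr5:3271045-3271102 (minus), chr5:26120675-26120732 (minus), chr4:18558946-18558987 (minus), chr5:24051378-24051435 (plus), chr1:18926712-18926769 (plus), chr5:24116304-24116361 (minus) and chr1:2077768-2077820 (minus), in the order shown.
HTR2 (H3.1): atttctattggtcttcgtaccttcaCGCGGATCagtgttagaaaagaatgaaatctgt
HTR9 (H3.1): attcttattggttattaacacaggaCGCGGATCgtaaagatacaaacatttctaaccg
HTR1 (H3.1): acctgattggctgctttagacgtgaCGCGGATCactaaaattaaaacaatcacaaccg
HTR5 (H3.3): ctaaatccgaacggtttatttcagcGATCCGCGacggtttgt
AT5G59690 (H4): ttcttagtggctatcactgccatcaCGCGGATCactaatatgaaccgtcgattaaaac
HTA10 (H2A): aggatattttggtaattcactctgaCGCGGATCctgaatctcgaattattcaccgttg
HTA6 (H2A.W): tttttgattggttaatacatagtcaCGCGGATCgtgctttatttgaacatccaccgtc
H1.1 (H1): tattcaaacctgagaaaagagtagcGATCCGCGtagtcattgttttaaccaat
In csld5 against col-0 all 7 replication-dependent genes with the octamer fell (median -0.50), as did 18 of the 19 without it (median -0.82). Genes outside the members with an octamer, 21 tested, fell in 11 cases and rose in 5 (median -0.22), where 20.4% of all tested genes fell and 21.1% rose. Among the replication-dependent genes the changes ran from -0.67 to -0.35 with the octamer and from -1.40 to -0.20 without it. The largest falls among the histone genes were thus in genes without the exact octamer. Its shorter core, CGGATC, stood upstream of 16 of the 40 members, against 3.88% of protein-coding genes. Of the replication-dependent genes 13 of 26 held the core, with 6 of 8 H4 but 2 of 9 H2B genes. AT3G45930, AT3G46320 and AT2G28740, taken above as without the octamer, were among those with the core. A match does not show that a factor binds.

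E2F factors, which drive genes of DNA synthesis, are known to bind letters such as TTTCCCGC, TTTCGCGC, TTTGCCGC and TTTGGCGC. One or more of these stood upstream of 3 members (7.5%), against 1.41% of protein-coding genes: HTB2 and the H4 pair AT3G45930 and AT3G46320. The pair, which also had equal fold changes, shared an identical upstream stretch, shown with the match in capitals, at chr3:16883066-16883111 (plus) and chr3:17020633-17020678 (minus).
AT3G45930: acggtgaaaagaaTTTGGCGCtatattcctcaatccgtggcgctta
AT3G46320: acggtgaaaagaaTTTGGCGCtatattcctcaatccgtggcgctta

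Histone genes outside the members were mostly expressed at low levels. Of 9 listed, 6 were tested and 3 fell in csld5 against col-0, where 20.4% of all tested genes did. CENH3, the centromeric H3, was at 11.4, 11.0 and 9.5 TPM in col-0 and 7.77, 7.74 and 7.13 in csld5, without overlap, and fell by 0.49 ± 0.09 (adjusted p = 0.00086). HTR11, an H3.1-like gene, fell by 0.52 ± 0.16, a call lost with the GC and length correction (-0.42). HTA4 fell by 2.97 ± 0.69, but from under 1 TPM. HTR10, the H3 of sperm cells, stood at 0.24 ± 0.20.

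Histone chaperones carry new histones to DNA. Of 14 listed genes 8 fell in csld5 and 0 rose, with a median of -0.20, against 20.4% of all tested genes that fell and 21.1% that rose. With GC and length corrected 7 were called lower (17.7% of all tested genes), with a median of -0.14: the calls of ASF1A (-0.14), NRP1 (-0.13) and NRP2 (-0.15) were lost, and SSRP1 (-0.24) and ATRX (-0.30) were called in addition. FAS1, a subunit of the CAF-1 complex that deposits H3.1, fell by 0.34 ± 0.06. NAP1;3 and NRP2, of the family that handles H2A and H2B, fell by 0.36 ± 0.06 and 0.32 ± 0.06, and ASF1B, which carries H3 and H4, fell by 0.47 ± 0.10.

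Genes of DNA synthesis had a smaller median change than the replication-dependent histones. Of 24 listed S-phase genes 10 fell and 1, the regulator E2FB, rose by 0.33 ± 0.10, with a median of -0.18, where 20.4% of all tested genes fell and 21.1% rose. CDT1A, which licenses origins, fell by 0.27 ± 0.06, the helicase subunit MCM2 by 0.28 ± 0.06, the cyclin CYCA3;2 by 0.32 ± 0.07 and the sliding clamp PCNA2 by 0.29 ± 0.07. Corrected for GC content and length, 15 were called lower and 1 higher (17.7% and 15.4% of all tested genes), with a median of -0.20. The gene called higher was then E2FC (0.23), another regulator, and E2FB was not called (0.21, adjusted p = 0.12). Of 8 mitosis genes 3 cyclins fell, CYCA1;1 by 0.55 ± 0.06, CYCB2;2 by 0.44 ± 0.08 and CYCB2;1 by 0.31 ± 0.11, with a list median of -0.17. With the correction 5 of the 8 were called lower, with a median of -0.22, and CYCB2;1 (-0.20) was not among them. The mitosis list summed to 296 to 315 TPM in col-0, to 256 to 277 TPM in csld5, and to 272 to 291 TPM with the transgene. Uncorrected, the S-phase and mitosis medians of -0.18 and -0.17 lay nearer to 0 than the -0.69 of the 26 replication-dependent genes. With the correction, -0.20 and -0.22 stood beside -0.42. Canonical H2A, at -0.18 with the correction, then lay nearer to 0 than either list. The part that the share of dividing cells has in the histone values was not tested.

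Markers of other cells moved as well. Of 7 late pollen and sperm genes 5 rose in csld5 (21.1% of all tested genes) and 0 fell (20.4%), among them VGDH1 by 1.92 ± 0.20, ANX2 by 2.36 ± 0.29, VGD1 by 1.07 ± 0.19 and RALFL4 by 0.87 ± 0.19. Summed, they ranged from 156 to 252 TPM in col-0, from 279 to 510 TPM in csld5, and from 233 to 273 TPM with the transgene, and none was at 0. Of 10 meristem and floral genes 9 were tested, of which 3 rose and 4 fell (21.1% and 20.4% of all tested genes), and with the correction 2 and 4. FIL and ANT, active in young organs, fell by 0.62 ± 0.08 and 0.57 ± 0.06. WUS and STM, regulators of stem cells, rose by 0.59 ± 0.16 and 0.18 ± 0.06. The call of STM was lost with the correction (0.10). With the correction WUS (0.55) and KNAT1 (0.22) were called higher, and CLV1 of the same list was called lower (-0.38). That list ranged from 377 to 384 TPM in col-0, from 318 to 349 TPM in csld5, and from 357 to 368 TPM with the transgene. The part of these differences in the histone values was not tested.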

How the data were processed

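For each of the 9 libraries the authors deposited raw counts and TPM. Per the submitters' processing notes, reads were handled with Trimmomatic 0.39, HISAT2 2.2.1 and featureCounts 2.0.6, on TAIR10. Strand setting, treatment of reads with several matches and the tool for TPM were not stated. The count and deposited TPM of a gene can therefore differ where genes overlap. Missing TPM cells, 8616 in all and 0 among the members, were set to 0.

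Differences in counts were tested in R 4.3.3 with edgeR 4.0.16 (default filter, TMM, quasi-likelihood F test, a joint fit over the 9 libraries by genotype, Benjamini-Hochberg adjustment over 22671 genes, threshold 0.05). Errors of fold changes are SE, and those of levels SD. The short-gene check compared shares called and medians. The GC and length correction fitted a smooth curve (mgcv 1.9.3, prior count 2, values bounded at percentiles 1 and 99) to each library and used it as an offset. Alternatives were DESeq2 1.42.0, its size factors, library totals, TMM factors from short genes, no filter, limma 3.58.1 on log2(TPM + 1) or log2(TPM + 0.1), the replicate number as a block, and leaving out each library. The edgeR steps without the correction were tested on simulated counts. These held no trend with GC content or length, so the simulation does not cover that feature of the libraries. Exons, GC content, overlaps and sequences came from RefSeq's TAIR10.1 annotation, while the files carry no coordinates.

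The members and the other lists were chosen with earlier results of these data known. Values of every library are given for the member of each type with the highest TPM. They are also given for the one with the smallest p in csld5 against col-0. From the other lists up to 4 called genes with the smallest p are named. HTR10, E2FB, KNAT1, CLV1 and genes whose call changed with the GC and length correction were named beyond this.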

Additional observations from a re-analysis of the deposited data

How the results depend on the processing

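In csld5 against col-0, 26 to 38 members were called lower and 0 higher under the alternatives run, and 31 to 36 when 1 library was left out; library totals gave 38 and TMM factors from short genes 31. The change in the class difference, -0.41, was -0.36 with limma on TPM at either pseudocount or without a filter and -0.29 with the GC and length correction, with or without the block. In complemented against csld5, 30 to 35 members were called higher when 1 library was left out. The GC and length correction, alone or with the block, gave 19 higher, 1 lower and a class difference of 0.28. TMM factors from short genes gave 1 lower, H1.2. With the correction HTR4 (-0.03), AT2G28740 (-0.02) and HTA3 (-0.03) turned sign in that comparison; with the block too they stood at -0.02, -0.02 and -0.03. By its construction the correction removes what follows GC content and length in each library, whatever its source. In complemented against col-0 no alternative called a member.

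Whether libraries with the same replicate number share a batch is not stated. Deviations of same-numbered libraries correlated at -0.106 to 0.196, and those of differently numbered libraries at -0.243 to 0.183. The replicate block gave 34 members lower in csld5 against col-0 and 33 higher in complemented against csld5, and with the correction 26 and 19. Depth limits H1.3, at 20 to 78 counts, more than any other member.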
